A study of Danio rerio with 5 samples.

Results

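A set of 10 genes tied to the yolk syncytial layer and to lipoproteins was compared between the mid-blastula transition of the zebrafish and a later stage. They are the regulator genes mxtx2, hnf4a, hnf1ba and cebpa, the transporter gene slc26a1, and the apolipoprotein or apolipoprotein-like genes apoeb, apoc1l, apoc2, apoba and zgc:161979. They were taken by name, and all 10 were found among the 22656 genes of the count table. The names were chosen with the stage values of this table in view, so the stage difference of these 10 genes is given as a description, and no p-value is given for it.

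RNA came from whole embryos of the Tübingen strain, with chorion and yolk taken off, at 4 hpf (sphere stage, called MBT; 3 libraries, A to C) and at 5.3 hpf (30% epiboly, called post-MBT; 2 libraries, A and B). Both groups were kept at the same temperature, and the labels name no genotype other than the strain, no treatment and no clutch. Library totals were 2488983 to 3701401 counts, of which mitochondrial genes took 43.0% to 51.5%. Levels are CPM, counts scaled to a common library size with TMM factors, and means are given ± SD over 3 MBT and 2 post-MBT libraries. TMM factors are meant to correct for differences in composition between libraries, and they assume that most genes do not differ. Here 62.8% of tested genes differed between the stages at adjusted p under 0.05 in edgeR's quasi-likelihood test. A rise or fall is therefore relative to the other genes, not an absolute amount. Every fold, log2 or linear, sets the later stage over the earlier one.

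The yolk syncytial layer is a sheet of nuclei in shared cytoplasm at the surface of the yolk cell. It forms when blastomeres at the margin fuse with the yolk cell, and it sends Nodal signals to the blastoderm, drives epiboly and passes yolk nutrients to the embryo. Apolipoproteins are the protein part of lipoproteins, the particles in which yolk lipid leaves this layer. Because the layer lies on the yolk, deyolking can take part of it away, and how much remained was not measured. In RNA of whole embryos, fewer cells or nuclei of a type and less RNA in each cannot be told apart.

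The regulators did not share a course. The homeobox gene mxtx2, which is needed to form the yolk syncytial layer, was already counted at 4 hpf, whereas hnf4a, hnf1ba and cebpa were absent or scarce there. mxtx2 (chromosome 12, 29121377 to 29122913, + strand, build D_rerio_Sep_2014 as for all positions here) had 42, 59 and 45 counts in MBT A, B and C and 23 and 34 in post-MBT A and B. These are 15.2, 13.5 and 15.7 CPM at the MBT and 7.40 and 12.6 CPM after it. All 3 MBT libraries lay above both post-MBT libraries, but post-MBT B came close to MBT B. The mean went from 14.8 ± 1.12 to 10.0 ± 3.70 CPM. On the log2 scale this difference was -0.57 ± 0.25 (SE). Without post-MBT A it was -0.21, and without post-MBT B it was -0.98. Scaled by library totals alone, with all libraries kept, it was also -0.98. The size of the difference therefore rested on the scaling and on which of the post-MBT libraries was kept.

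The nuclear receptor gene hnf4a, known from liver, gut and kidney (chromosome 23, 25905901 to 25939315, + strand), was not counted in any MBT library and had 78 counts in post-MBT A and 65 in B. The post-MBT libraries were close to each other at 25.1 and 24.2 CPM. Set against a floor of 3 counts over the MBT group, hnf4a was 82.2-fold higher. This is a lower limit and no estimate of the fold, with the post-MBT count taken as exact. Per library, a count of 0 allowed up to 1.08, 0.688 and 1.05 CPM in MBT A, B and C, so transcript below that level could have been missed at this depth.

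The homeodomain factor gene hnf1ba, which patterns gut, kidney and hindbrain (chromosome 15, 16061127 to 16076941, - strand), had 2, 11 and 5 counts at the MBT and 52 and 57 after it. The stages did not overlap, with 0.722 to 2.52 CPM at the MBT and 16.7 and 21.2 CPM after it. The ratio of the pooled counts was 10.4 (95% exact counting interval 6.31 to 18.3). The leucine-zipper factor gene cebpa, a regulator of liver and myeloid genes (chromosome 7, 37813728 to 37816607, - strand), had 0, 3 and 2 counts and then 18 and 10. It was the scarcest of the 4 regulators after the MBT at 4.76 ± 1.47 CPM. Its pooled ratio was 9.66, with a wide interval of 3.68 to 32 because the MBT value rests on 5 counts.

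The shares of the regulator counts differed between the stages. Of the counts of the 4 regulators, mxtx2 held 95.5%, 80.8% and 86.5% in MBT A, B and C, but 13.5% and 20.5% in post-MBT A and B. hnf4a then gave 3.39 and 1.91 counts per count of mxtx2. These shares compare genes of different length, but the change between stages within each gene does not depend on length. With 4209 exonic bases for hnf4a and 1322 for mxtx2, the count ratio does not rank the 2 genes. Per kilobase of exon they overlapped after the MBT, at 7.58 ± 2.8 CPM for mxtx2 and 5.85 ± 0.16 for hnf4a. The summed level of the 4 genes went from 16.9 ± 1.11 to 58.4 ± 4.67 CPM.

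The transporter gene slc26a1, whose product exchanges sulfate and other anions (chromosome 21, 20287926 to 20295922, - strand), had 0, 1 and 1 counts at the MBT and 19 and 28 after it. Both post-MBT libraries, at 6.12 and 10.4 CPM, were far above the MBT libraries, and the pooled ratio was 40.5 (10.6 to 345). An uncharacterised gene, LOC101886495, spans slc26a1 on the other strand, and the counts carry no strand. It had 5, 4 and 2 counts at the MBT and 2 and 3 after it, so it was not higher at the stage where slc26a1 was. No other gene of the set overlapped a gene with a span under 1000000 bp.

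**Figure D1:**
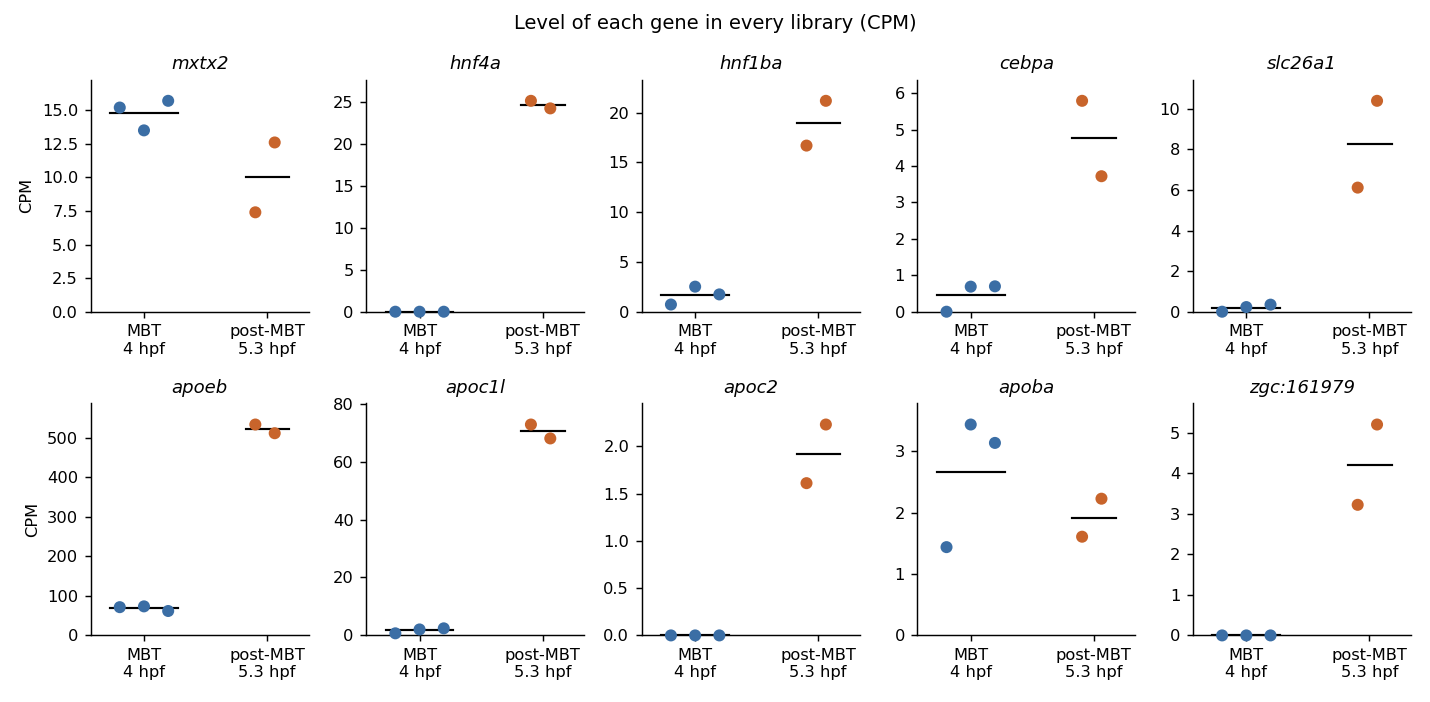
Level of each of the 10 genes in every library, in CPM on a linear axis that differs by panel; each point is 1 library and each line the mean of its stage. For 8 of the 10 genes both post-MBT libraries lie above every MBT library, mxtx2 is the reverse with a narrow gap, and the stages of apoba overlap. Among tested genes this holds for 6 of 8 here and for 36.3% of all. The genes were picked on this contrast, so nothing is read from the count.

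Among the apolipoprotein genes, apoeb dominated at both stages. It encodes apolipoprotein E, which takes lipoproteins to their receptors (chromosome 16, 24045787 to 24048560, + strand). It had 198, 320 and 177 counts at the MBT and 1656 and 1375 after it. The MBT libraries lay between 61.7 and 73.4 CPM, and the post-MBT libraries at 533 and 511 CPM. This is a log2 fold change of 2.91 ± 0.08, or 7.54-fold, on a transcript that was already above 93.4% of tested genes per length at 4 hpf. Scaled by library totals alone, without TMM factors, it was 2.5.

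The gene apoc1l, which RefSeq now lists as apoc1, encodes a small apolipoprotein that slows lipoprotein uptake and lipolysis in mammals (chromosome 16, 24057095 to 24058691, + strand). It had 2, 9 and 7 counts at the MBT and 226 and 183 after it. It was therefore near the floor in every MBT library and near 70 CPM in both post-MBT libraries (72.8 and 68). The log2 fold change was 5.26 ± 0.24 and the pooled ratio 39.2 (24.5 to 66.8). Relative to apoeb, there were 1.01, 2.81 and 3.95 counts of apoc1l per 100 counts of apoeb in MBT A, B and C, and 13.6 and 13.3 in post-MBT A and B. This ratio within a library does not depend on the scaling, and it shows that apoc1l differed more between the stages than apoeb did.

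The gene apoc2, for the cofactor of lipoprotein lipase (chromosome 16, 24069658 to 24076129, + strand), was not counted at the MBT and had 5 counts in post-MBT A and 6 in B. The floor of 3 counts over the MBT group puts the lower limit of the difference at 6.33-fold, with the post-MBT count again taken as exact. The gene zgc:161979 (chromosome 16, 45947764 to 45950541, - strand) is listed by RefSeq as afp4, a type IV antifreeze protein gene, whose family is related to apolipoproteins. It was not counted in any MBT library and had 10 counts in post-MBT A and 14 in B, which is 13.8-fold above the floor. Both were too scarce to pass the filter on low counts. In both, the 2 post-MBT libraries had counts and the 3 MBT libraries had none.

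The gene apoba, for apolipoprotein B, the large scaffold protein of very low and low density lipoproteins (chromosome 17, 30687113 to 30711003, + strand), stood apart from the others. It had 4, 15 and 9 counts at the MBT and 5 and 6 after it. The stages overlapped, at 1.44 to 3.44 CPM at the MBT and 1.61 and 2.23 CPM after it. The log2 fold change was -0.54 ± 0.57, and the counting interval of the ratio, 0.304 to 1.4, spans no difference. With 13478 exonic bases and at most 15 counts in a library, apoba was the lowest of the 10 per length after the MBT.

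Summed over the 5 apolipoprotein genes, the level was 73.6, 78.9 and 67.2 CPM in MBT A, B and C and 612 and 589 CPM in post-MBT A and B. Of these counts apoeb held 97.1% (95% exact interval 93.7 to 98.9%), 93.0% (89.8 to 95.5%) and 91.7% (86.9 to 95.2%) at the MBT. After it the share was 87.1% (85.5 to 88.5%) and 86.8% (85 to 88.4%), and apoc1l held most of the rest. Intervals cover counting error only, and floors cover that of the MBT count alone.

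Of the 10 genes, 8 passed the filter on low counts. In edgeR's quasi-likelihood test 6 of the 8 were called higher after the MBT and 1, mxtx2, lower, against 31.0% higher and 31.8% lower among all 12007 tested genes (62.8% in either direction). The call of mxtx2 was not firm: its log2 value was -0.21 without post-MBT A, and the authors' DESeq2 lists leave it out. The post-MBT libraries lay above all MBT libraries in 6 of the 8 tested members, against 36.3% of all tested genes, and also in the untested apoc2 and zgc:161979. The genes were picked on this contrast, and those that were high at one stage only had to differ to pass the filter, so nothing is read from these counts.

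Levels of different genes were compared per kilobase of exon. At the MBT the order was apoeb (43.7 ± 3.99 CPM per kb), mxtx2 (11.2 ± 0.844) and apoc1l (2.22 ± 1.15), each clear of the next in every library. Below them hnf1ba, apoba, cebpa and slc26a1 lay between 0.377 and 0.0641 CPM per kb and overlapped their neighbours. After the MBT apoeb reached 331 ± 9.92 CPM per kb and apoc1l, now second, 89.8 ± 4.28. Then came zgc:161979, mxtx2 and hnf4a at 7.83 ± 2.61, 7.58 ± 2.8 and 5.85 ± 0.160, which overlapped in order, and hnf1ba at 4.29 ± 0.712. The lowest were slc26a1 (2.75 ± 1.01), apoc2 (2.22 ± 0.508), which overlapped with its neighbours, cebpa (1.65 ± 0.510) and apoba (0.142 ± 0.0325).

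**Figure D2:**
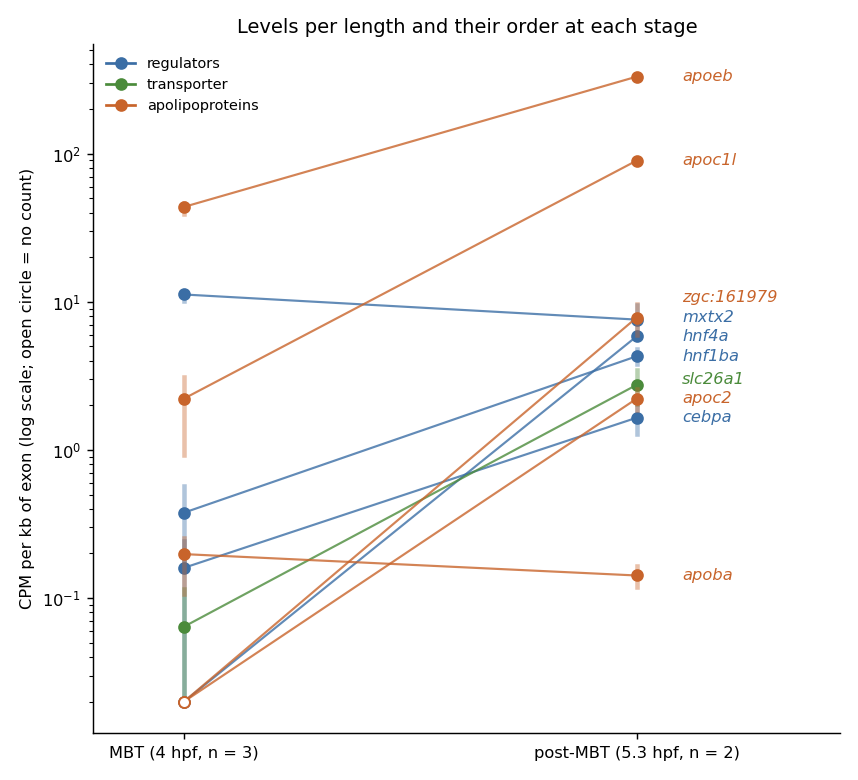
Mean level per kilobase of exon at each stage (log axis) for the 10 genes, joined by lines and coloured by role; pale bars span the lowest to highest library, and open circles at the bottom mark genes with no count. The order changes between the stages: mxtx2 goes from 11.2 to 7.58 CPM per kb while apoc1l goes from 2.22 to 89.8.

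A group of 3 genes of the set are neighbours. apoeb, apoc1l and apoc2 lie on the same strand within 30343 bp of chromosome 16, with gaps of 8535 and 10967 bp. The apoc4 gene (zgc:193682 in the table), another apolipoprotein gene, sits between apoc1l and apoc2, and 3 apoa4b genes lie up to 46.7 kb before apoeb. Those 4 apolipoprotein genes had 1 or 2 counts each over all 5 libraries, so the high levels within the cluster were those of apoeb and apoc1l, with a few counts of apoc2. Of the other genes within 100 kb, nbn, for a DNA repair protein, fell (log2 fold change -0.51 ± 0.19, adjusted p = 0.0155), and gtpbp10 (0.29 ± 0.29, adjusted p = 0.384) and bcam (0.95 ± 0.47, adjusted p = 0.0726) were not called. Without MBT C, bcam was called higher (1.18, adjusted p = 0.0297). zgc:161979 lies 21.9 Mb away on the same chromosome.

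**Figure D3:**
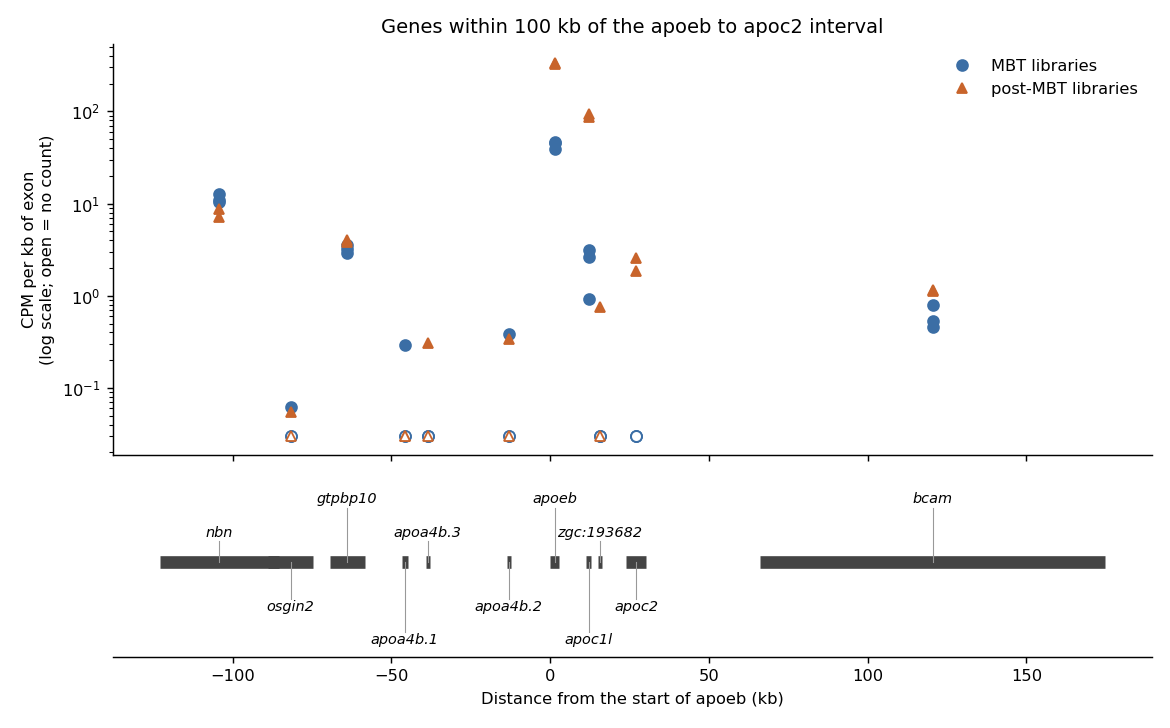
Level per kilobase of exon (log axis; open symbols mark no count) of the 11 genes within 100 kb of the interval from apoeb to apoc2, against distance from the start of apoeb; circles are MBT and triangles post-MBT libraries, and the lower track draws each gene to scale. The post-MBT symbols of apoeb (338 and 324 CPM per kb) and apoc1l (92.8 and 86.7) lie far above their MBT symbols, and apoc2 has counts in the post-MBT libraries alone.

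The nearest gene on each side was examined for all 10. Of 17 such neighbours outside the set, 10 were tested, and 4 rose, 2 fell and 4 had no call. That is 40.0% up and 20% down, beside 31.0% and 31.8% of all tested genes, and 10 genes are too few to tell these shares apart. The pair cebpa and cebpg, 1839 bp apart, differed in direction. cebpg, a partner of other C/EBP factors, had 239, 392 and 229 counts at the MBT and 78 and 98 after it, and it fell from 85.3 ± 5.15 to 30.8 ± 8.0 CPM (log2 fold change -1.49 ± 0.14, adjusted p = 5.30e-16). Beside mxtx2, the ribosome assembly gene bms1 rose (1.23 ± 0.10, adjusted p = 4.42e-19). Beside hnf4a, ttpal was called lower (-0.77 ± 0.29, adjusted p = 0.0150), but not with DESeq2 or without any one of MBT C and the 2 post-MBT libraries.

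Relatives of the regulators were split. Of 30 HNF, C/EBP, Onecut, FoxA and nuclear receptor genes in the table, 11 were tested, and 5 rose, 2 fell and 4 had no call. Their median log2 fold change was 0.54, against -0.04 for all tested genes, of which 31.0% were higher and 31.8% lower. The endoderm factor gene foxa2 rose from 1.09 ± 0.0517 to 17.4 ± 0.923 CPM (adjusted p = 1.19e-15), cebpb from 6.20 ± 0.423 to 19.0 ± 1.44 CPM (adjusted p = 6.24e-08) and the retinoid X receptor gene rxrba from 134 ± 1.85 to 241 ± 0.725 CPM (adjusted p = 8.34e-15). Besides cebpg, the oxysterol receptor gene nr1h3 fell (-0.99 ± 0.17, adjusted p = 7.01e-07). Among HNF relatives, some were too scarce to test: hnf1bb had 6, 8 and 5 counts and then 2 and 6, hnf4g 4 in MBT A and none elsewhere, and hnf4b 1 count in all.

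Other tested genes of the yolk syncytial layer and of its Nodal pathway mostly rose. Of 15 listed, 9 were tested, and 8 rose and 1 fell (median 3.68). The shares over all tested genes were 31.0% higher and 31.8% lower. Some, such as gata5 (1, 2 and 2 counts, then 146 and 145), passed the filter on low counts only through the post-MBT libraries. Such genes had to differ to be tested, and the list was written with earlier results known, so nothing is read from these shares. Untested were hhex (1, 0 and 0 counts, then 1 and 4), slc40a1 (1, 4 and 4, then 2 and 1) and gata4 (2, 0 and 0, then none), besides the nutrient carriers below. Of the tested genes, the homeobox gene mixl1 rose from 9.59 ± 1.05 to 203 ± 4.80 CPM and foxa3 from 13.7 ± 0.673 to 175 ± 14.6. In the same way gata5 rose from 0.505 ± 0.173 to 50.4 ± 4.87 and gata6 from 0.866 ± 0.514 to 26.2 ± 3.93 (adjusted p of the 4 from 9.55e-45 to 2.20e-21). All 4 are also expressed in endoderm or margin cells of the blastoderm. mxtx1, the paralog of mxtx2, rose from 1.17 ± 0.422 to 5.41 ± 1.28 CPM (adjusted p = 1.79e-04), opposite in sign to mxtx2. The fall was bcl2l10, an inhibitor of apoptosis that acts in the yolk syncytial layer, from 59.9 ± 4.84 to 32.9 ± 2.36 CPM (adjusted p = 1.83e-07). Of nutrient carriers of the layer, transferrin tfa had 0, 0 and 1 counts and then 6 and 8, rbp4 at most 4, and ttr none.

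Other apolipoprotein genes were at low counts or at 0. Of 19 listed, 1 is apoc1l itself, 6 are given with no count, 2 were not matched and 10 were in the table. Of these 10, only apoda.2 (si:dkey-52k20.7 in the table), a lipocalin-type apolipoprotein D gene, was tested, and it fell from 6.87 ± 1.01 to 2.70 ± 1.19 CPM (adjusted p = 0.00544), a call lost with DESeq2 and without post-MBT B. The other 9, among them apoa1a and the second apolipoprotein B gene apobb.1, had at most 6 counts in any library.

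Among 11 tested genes for building and secreting lipoproteins, 5 rose, 3 fell and 3 had no call (median 0.11). The shares over all tested genes were 31.0% higher and 31.8% lower. mttp (mtp in the table), whose product loads lipid onto apolipoprotein B, had 5, 1 and 2 counts at the MBT and 98 and 95 after it. It rose by 5.31 ± 0.34 on the log2 scale (adjusted p = 4.93e-24), from a mean of 0.910 ± 0.809 to one of 33.4 ± 2.66 CPM. Without MBT A this value was 6.19 and without MBT B 4.69. For apoba, a gene of its partner protein, the value given above was -0.54 ± 0.57. The second such gene, apobb.1, was untested, with 4, 0 and 0 counts at the MBT and 4 and 6 after it. These counts are too few to tell whether messages for the partner rose. The other rises included dgat1b, for triglyceride synthesis (1.53 ± 0.43, adjusted p = 0.00165), and the small rise of the vesicle coat gene sar1b (0.44 ± 0.10, adjusted p = 9.24e-05), while surf4l, for a cargo receptor, and the sterol response gene srebf1 fell (-0.90 ± 0.20 and -0.72 ± 0.18, adjusted p = 9.73e-05 and 4.11e-04). Scaled by library totals, 2 genes of this list were called higher, mttp among them, and the value for sar1b was 0.03 (adjusted p = 0.856).

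Among receptors and lipases, 12 were tested, and 2 rose, 7 fell and 3 had no call (median -0.69), beside 31.0% higher and 31.8% lower among all tested genes. The very low density lipoprotein receptor gene vldlr fell from 138 ± 8.93 to 49.4 ± 4.76 CPM, the endothelial lipase gene lipg from 47.9 ± 4.42 to 7.0 ± 1.49, the receptor chaperone gene lrpap1 from 35.8 ± 4.47 to 8.32 ± 0.843 and the adaptor gene ldlrap1a from 23.6 ± 3.74 to 6.11 ± 1.35 (adjusted p from 3.62e-20 to 4.49e-10). The rises were the lipoprotein lipase gene lpl (2.21 ± 0.38, adjusted p = 5.86e-07) and sort1b (1.81 ± 0.31, adjusted p = 4.37e-07). In the slc26 family none of the 3 tested relatives rose: slc26a11 and slc26a5 fell (-2.09 ± 0.28 and -0.54 ± 0.14, adjusted p = 4.61e-10 and 5.36e-04) and slc26a2 was not called (-0.63 ± 0.44).

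Of the yolk list, 5 vitellogenin genes are given with no count, and vtg3 and vtg7 had 1 count each. Vitellogenin messages are made in the mother's liver, so this says nothing of how much yolk was left. Cathepsins are a family of proteases, some of which break down yolk. Among 6 tested cathepsin genes 4 rose and 2 fell, beside 31.0% higher and 31.8% lower among all tested genes. ctsla rose from 325 ± 4.68 to 557 ± 25.3 CPM (adjusted p = 1.90e-16), ctsc by 0.72 ± 0.09 (adjusted p = 4.63e-11) and ctsh by 3.39 ± 0.53 (adjusted p = 4.25e-08) on the log2 scale, and ctsz fell (-1.87 ± 0.24, adjusted p = 2.13e-10).

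Markers of other cell types moved with these genes. Enveloping layer markers rose in 12 of 14 tested cases, beside 31.0% of all tested genes. Their summed level was 355 to 380 CPM at the MBT and 1340 to 1350 CPM after it. The leading members were krt8, evpla, krt4 and krt18, and the keratin gene cyt1 was at 0 in all MBT libraries. Deep cell mesoderm markers rose in 8 of 8 tested cases, led by ta, tbx16, her1 and her7. These markers summed to 175 to 208 CPM at the MBT and 1570 to 1680 CPM after it. The part of these other cell types in the stage difference of the 10 genes was not tested. Markers of liver and intestine, which make apolipoproteins later, were scarce at both stages. Of 18 listed, 8 are given with no count, 1 was not matched and 9 were in the table. Of these 9, 1 (tfr1a) was tested and not called (-0.78 ± 0.52, adjusted p = 0.183). It is a transferrin receptor gene that is not specific to these organs, so no direction is read for the list. The complement gene c3a.1, untested, was highest of the other 8, with 5, 5 and 4 counts at the MBT and 17 and 9 after it, so its stages did not overlap. These post-MBT counts are close to those of cebpa (18 and 10).

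Among the MBT libraries, A was lowest for the scarce members. Summed over hnf1ba, cebpa, slc26a1, apoc1l and apoba, a grouping made after their values were seen, there were 8, 39 and 24 counts in MBT A, B and C, or 2.89 (95% exact interval 1.25 to 5.69), 8.95 (6.36 to 12.2) and 8.36 (5.36 to 12.4) CPM. The sum was 103 and 106 CPM after the MBT. The intervals do not allow for the choice of these 5 genes. Outside the set, scarce genes went either way. In MBT A, B and C, mttp was highest in A (1.8, 0.229 and 0.697 CPM) and evpla lowest in A (2.16, 4.13 and 5.23 CPM). Enveloping layer markers summed to 355, 380 and 377 CPM in MBT A, B and C, and mesoderm markers to 208, 175 and 180 CPM, so the latter were highest in A. Without MBT A the log2 fold change of apoc1l was 4.95 and that of hnf1ba 3.06.

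In the authors' deposited table, whose ratios come from DESeq2, 6 of the 10 genes are in the strictest list, and cebpa enters at the next level. That list holds 1318 of 22656 genes (at least 3.0-fold, adjusted p at most 9.98e-04). mxtx2, apoba and apoc2 are in none of the lists. The 10 genes were picked on this contrast, so nothing is read from how many are listed. The deposited fold of 5.3 over 4 hpf is 51.6 for hnf4a, 31.0 for apoc1l and 12 for slc26a1, below the floor-based or pooled ratio of each given above. It is 7.53 for apoeb. The authors' deposited table has an exon comparison score above 0 for 179 of 22656 genes, and for none of these 10. So few genes have such a score that nothing is read from its absence in 10.

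**Figure D4:**
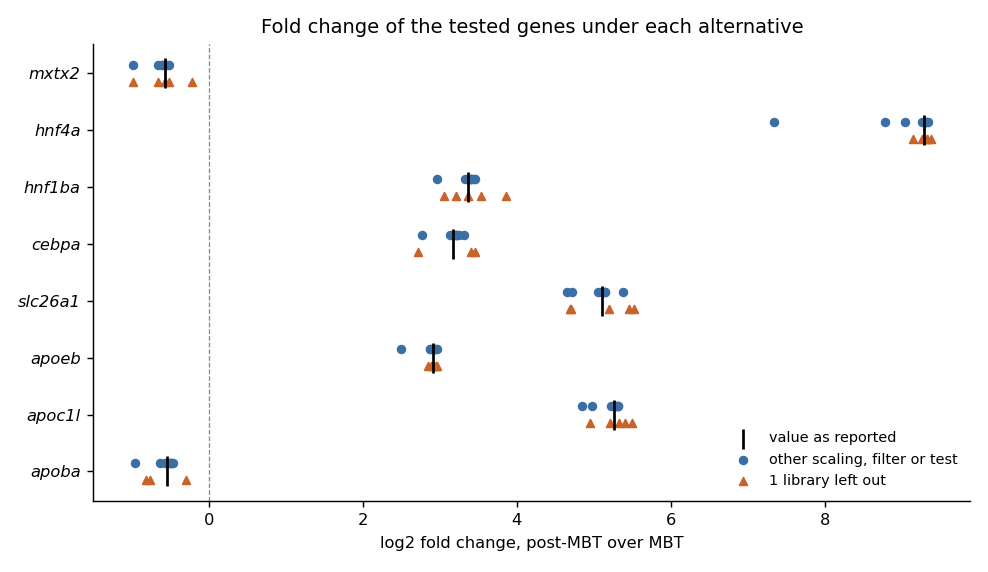
Log2 fold change (post-MBT over MBT) of the 8 tested genes as reported (bars), under other scalings, filters or tests (circles) and with 1 library left out (triangles). No gene crosses 0 where it could be fitted, the values of mxtx2 reach from -0.98 to -0.21, and the spread of hnf4a follows how each method treats a group with no count.

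Genes whose levels ran closest to a member were ranked by the root mean square difference in log2 CPM over the 5 libraries. For apoeb they included sox3 and hspb1 (0.33 and 0.37). For hnf4a they were gcnt7, szl and eve1 (0.45, 0.49 and 0.54), all with at most 0.361 CPM in any MBT library. For mxtx2 they were chchd6a, dacha and ttll6 (0.14, 0.15 and 0.16), and for apoc1l her1, slc38a4 and krt97 (0.60, 0.69 and 0.70). With libraries from 2 stages only, likeness here means a like level before and after the MBT.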

How the data were processed

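Per the labels' protocols, libraries were made from 5 ng of total RNA with random hexamers and transposase tagging. Novoalign 2.8 and DESeq2 are named in the submitters' processing notes. The deposited counts are whole numbers of alignments that touch a gene, per the file headers, on the build D_rerio_Sep_2014. For reads that map to more than one place, the counting rule is not given in the sources used. The deposited log2 ratios are 4 over 5.3 hpf from DESeq2, and the deposited scores are adjusted p-values on a multiplied, negative log10 scale, per the file headers. Another 10 columns of per-library values were not used. Count columns name the stage but not the replicate, so libraries are lettered. The labels do not say whether a stage's libraries came from different clutches. Each p-value therefore rests on library-to-library spread alone, which may be technical.

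Counts of all genes were fitted with edgeR 4.0.16 (R 4.3.3; TMM factors; filterByExpr, count minimum 10; quasi-likelihood test with robust dispersion), with Benjamini-Hochberg adjustment over 12007 genes and calls made under 0.05. An SE is the log2 fold change divided by the square root of F. The fit was also run on simulated counts in which few, well-counted genes changed. In these data 62.8% of tested genes were called and some members had few or no counts, so that run cannot show how the fit does here. Ratios of pooled counts use the TMM-scaled library sizes and exact binomial intervals (scipy 1.17.1). Alternatives used DESeq2 1.42.0 and limma 3.58.1. The relative counting error sets the precision of scarce genes, and totals ran from 2488983 to 3701401 counts. The members and gene lists were chosen with earlier results of these data known. In every list, a gene scarce at one stage had to differ to pass the filter. The shares of tested genes called in a list are therefore a description. Named are all members, the leading genes of each list (up to 4 by adjusted p) and genes against their list; further names were chosen after their values were seen. Older symbols and the names apoc1 and afp4 come from RefSeq (GRCz12tu), where all 10 members matched. A few genes that these rules name are not reported here.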

Additional observations from a re-analysis of the deposited data

How the results depend on the processing

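Each result was recomputed under 13 alternatives, 5 of which left out 1 library. No paired analysis was possible because the count columns carry no replicate number. Scaling by library totals moved the median over all tested genes by -0.41 (log2). It gave 2173 genes called higher and 5574 lower, with 2 assembly genes higher and 5 lower, and 2 enveloping layer markers lower. With the DESeq2 Wald test 2990 genes were called higher and 2497 lower, and 1 cathepsin gene fell, as with DESeq2 size factors (1) and upper-quartile factors (1). With no filter 4 receptor or lipase genes rose. Leaving out 1 library, assembly genes called higher numbered 3 to 5, cathepsin genes called lower 1 to 2 and enveloping layer markers called lower 0 to 1. The sign of the neighbour genes pde6b (0.08 without post-MBT A, -1.42 without post-MBT B) and synrg (-0.29 with library totals) turned, and neither was called in any of these; the cause was not tested.

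None of the 8 tested members changed sign in the alternatives where it could be fitted. Over the alternatives the log2 fold change was 2.5 to 2.96 for apoeb, 4.85 to 5.49 for apoc1l, 4.65 to 5.52 for slc26a1, 2.96 to 3.86 for hnf1ba, 2.72 to 3.46 for cebpa, -0.98 to -0.21 for mxtx2 and -0.95 to -0.30 for apoba. The fitted value of hnf4a, 7.34 to 9.37, depends on the prior count and is no measure of its fold. cebpa could not be fitted without MBT B or post-MBT A, nor apoba without MBT B or C, since they failed the count minimum. MBT B and C held the most counts of apoba, so its sign without either of them is not known. Depth limits apoc2, zgc:161979, cebpa and apoba most, with at most 18 counts in a library.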

Other observations

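Genes for the cholesterol exporter ABCA1, which passes lipid to apolipoproteins and was in none of the lists, were also higher after the MBT. They were chosen after their values were seen. abca1b had 12, 8 and 4 counts in MBT A, B and C and 209 and 192 in post-MBT A and B, from 2.52 ± 1.58 to 69.3 ± 2.88 CPM (log2 fold change 4.82 ± 0.23, adjusted p = 6.85e-32 in edgeR's quasi-likelihood test). The paralog abca1a had 5, 4 and 0 counts and then 13 and 15 (2.38 ± 0.59, adjusted p = 3.11e-04).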
